A study of Mus musculus with 6 samples.

Results

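The BTG/TOB and Schlafen genes studied here were 7 genes that restrain proliferation in lymphocytes and other cells: Btg1, Btg2, Btg3, Tob1, Tob2, Slfn1 and Slfn2. They were taken as every probe whose platform gene symbol was one of these names, which gave 11 probes of 25697 in all, for 7 genes of 16593. BTG and TOB proteins form the antiproliferative APRO family. Through a shared amino-terminal domain they bind the CCR4-NOT deadenylase, which shortens mRNA tails and so speeds mRNA decay, and in T cells BTG1 and BTG2 help to hold resting cells in quiescence by this route. Schlafen genes were first described in mouse thymocytes, where forced Slfn1 expression slows growth, and loss of Slfn2 function leaves mouse T cells unable to stay quiescent.

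Transcript levels came from thymocytes of 6 mice of the C57/BL6 background, aged 8 to 10 weeks, with 1 Illumina MouseRef-8 v2 bead array per mouse. All 6 mice carried floxed Klf4 alleles (Klf4 fl/fl). The 3 knockout mice also carried CD4-Cre, a Cre recombinase driven by Cd4 regulatory sequence that acts from about the double-positive stage on, and the 3 control mice did not, so a Cre-only effect and Klf4 loss cannot be told apart. Cells were enriched for CD4 to a stated purity above 94%, which keeps double-positive (DP) thymocytes, bearing CD4 and CD8, together with CD4 single-positive ones (SP4), and the labels do not say which of the stated isolation kits served which mouse. Values are scores in z units, the number of SDs from the mean of all probes of an array, after quantile normalization between arrays. Whether brightness or its logarithm was standardised is not given in the sources used here, so no fold change can be stated, and a difference means the mean of the knockout mice minus that of the control mice.

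The labelled cell type was checked against its markers. The 7 measured T-cell markers had a median percentile within the array of 99.6 to 99.7 in every mouse, and the 11 measured DP markers one of 97.1 to 98.0. The 13 measured mature SP4 markers had one of 83.5 to 86.1. Within these lists Cd4 had mean percentiles of 86.9 in knockout and 86.68 in control mice. Cd8a was dim on its brightest probe, at 9.06 and 10.88, while Cd8b1 was at 99.95 in both groups. Medians for other cell types lay between 42.7 and 53.2 for B cells, 44.6 and 57.8 for myeloid and dendritic cells, 17.0 and 35.9 for erythroid cells, 13.6 and 36.2 for NK and cytotoxic cells and 37.0 and 47.2 for stroma. Single markers could be far brighter than the median of their list. Cd74, Lyz2 and H2-Ab1 had group mean percentiles of 91.15 to 93.56, and the other myeloid and dendritic markers 74.37 or less. Lyz2 ranged from 1.34 in knockout 2 to 2.249 in control 3. The B-cell marker Cd79b had mean percentiles of 80.86 in knockout and 81.38 in control mice. Carry-over of other cells was not tested. Klf4, the deleted gene, read 0.05, 0.109 and -0.145 in control mice 1 to 3 on probe ILMN_1241903 and -0.555, -0.758 and -0.696 in knockout mice 1 to 3. On ILMN_1221264 the control mice read -0.23, -0.275 and -0.428 and the knockout mice -0.675, -0.736 and -0.65. These are the 2 probes of 15418 tested that passed an adjusted p of 0.05, both lower in the knockout, and ILMN_2999439 differed by 0.037 (SE 0.0931). Control 3 stood apart in sex-linked genes, with Eif2s3y at -0.834 against 1.533 to 1.894 in the other mice and Xist probe ILMN_3022688 at 2.116 against -0.558 to -0.404. By these genes control 3 alone reads as female, so sex is not balanced between the groups. The part of sex in the member values was not tested.

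KLF4, a zinc-finger protein, binds GC-rich and CACCC-type elements. The DNA just upstream is therefore shown for 4 of the members, whose counts of CACCC matches run from 3 to 0. Among the 8 annotated starts of the 7 genes, the 250 bases upstream held the letters CACCC on either strand in 5, and the same was true of 52.0% of 32851 mouse promoter windows of that length. Tob1 held 3 matches, Tob2 held 2, Slfn2 and each of the 2 starts of Btg3 held 1, and Btg1, Btg2 and Slfn1 held 0. The 4 windows below run 5′ to 3′ along the gene's strand, from RefSeq on GRCm38.p6, and capitals mark CACCC or its complement GGGTG.
Tob1, chr11:94211204-94211453, plus strand: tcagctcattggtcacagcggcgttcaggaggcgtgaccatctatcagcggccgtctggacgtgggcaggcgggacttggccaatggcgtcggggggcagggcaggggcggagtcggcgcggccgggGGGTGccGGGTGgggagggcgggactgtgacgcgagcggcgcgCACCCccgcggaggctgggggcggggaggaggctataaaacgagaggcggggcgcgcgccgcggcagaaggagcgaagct
Tob2, chr15:81858327-81858576, minus strand: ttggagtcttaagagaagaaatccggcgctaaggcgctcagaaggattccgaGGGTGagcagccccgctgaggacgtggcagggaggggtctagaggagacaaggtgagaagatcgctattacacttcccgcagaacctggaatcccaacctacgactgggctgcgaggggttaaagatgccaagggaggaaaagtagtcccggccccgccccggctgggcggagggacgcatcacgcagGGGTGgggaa
Slfn2, chr11:83064862-83065111, plus strand: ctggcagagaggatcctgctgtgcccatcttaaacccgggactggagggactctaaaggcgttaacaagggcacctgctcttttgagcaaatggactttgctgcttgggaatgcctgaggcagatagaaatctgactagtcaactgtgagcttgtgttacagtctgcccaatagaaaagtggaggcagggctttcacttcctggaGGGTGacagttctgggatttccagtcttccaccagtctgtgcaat
Slfn1, chr11:83116570-83116819, plus strand: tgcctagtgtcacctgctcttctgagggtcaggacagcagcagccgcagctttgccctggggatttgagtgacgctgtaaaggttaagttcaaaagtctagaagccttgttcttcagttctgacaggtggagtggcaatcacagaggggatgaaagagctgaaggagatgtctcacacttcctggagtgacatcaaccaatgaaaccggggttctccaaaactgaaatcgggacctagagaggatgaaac
The GC box letters CCGCCC, searched on both strands, were found in 5 of the 8 windows and in 32.7% of all windows. They were at 3 places each in Btg2 and Tob1 and at 2 each in Btg1, Tob2 and 1 start of Btg3, and matches of CACCC and CCGCCC shared no bases in these windows. Windows with CCGCCC were 60.4% to 75.2% G and C, and those without it 50.0% to 57.2%. The background of all windows was not matched for this content, so the 2 shares are not compared further. A match is a description of letters only, and no binding was measured.

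**Figure D1:**
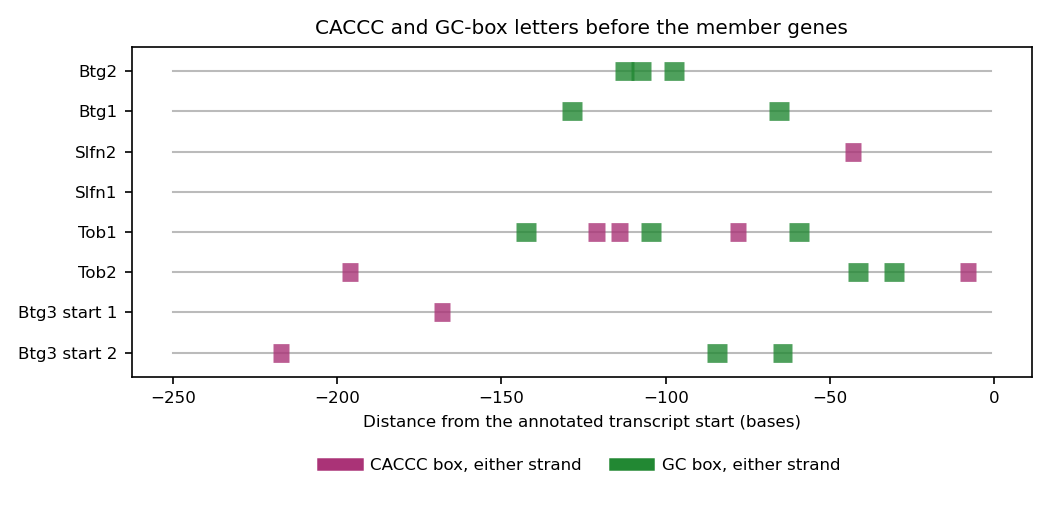
Positions of CACCC and CCGCCC letters, on either strand, in the 250 bases before each annotated start of the 7 genes; the horizontal axis is the distance from the start in bases. Tob1 has 3 of each, Slfn1 has 0 of both, and Btg1 and Btg2 have GC boxes with 0 CACCC matches.

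No BTG/TOB or Schlafen probe that was tested differed significantly between knockout and control mice. Of the 11 probes, 9 probes for 6 genes were bright enough to be tested, and 0 of the 9 passed, against a background of 0.013% of the 15418 probes tested (limma, Benjamini-Hochberg over all of them). At an unadjusted p under 0.05 the count was also 0 of 9, where 8.82% of all probes tested reached that level. The differences ran from -0.059 to 0.118, with 3 above 0 and 6 below and a median of -0.032, where the median over all probes tested was -0.0004. Adjusted p ranged from 0.653 to 0.95. The 95% intervals of the 9 probes all lay between -0.232, the lower end for Slfn1, and 0.294, the upper end for Tob2. They were narrower on other probes, such as -0.135 to 0.017 on Btg1 ILMN_2866185 and -0.155 to 0.082 on Slfn2. In bulk cells, fewer cells of a type and less RNA per cell cannot be told apart.

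**Figure D2:**
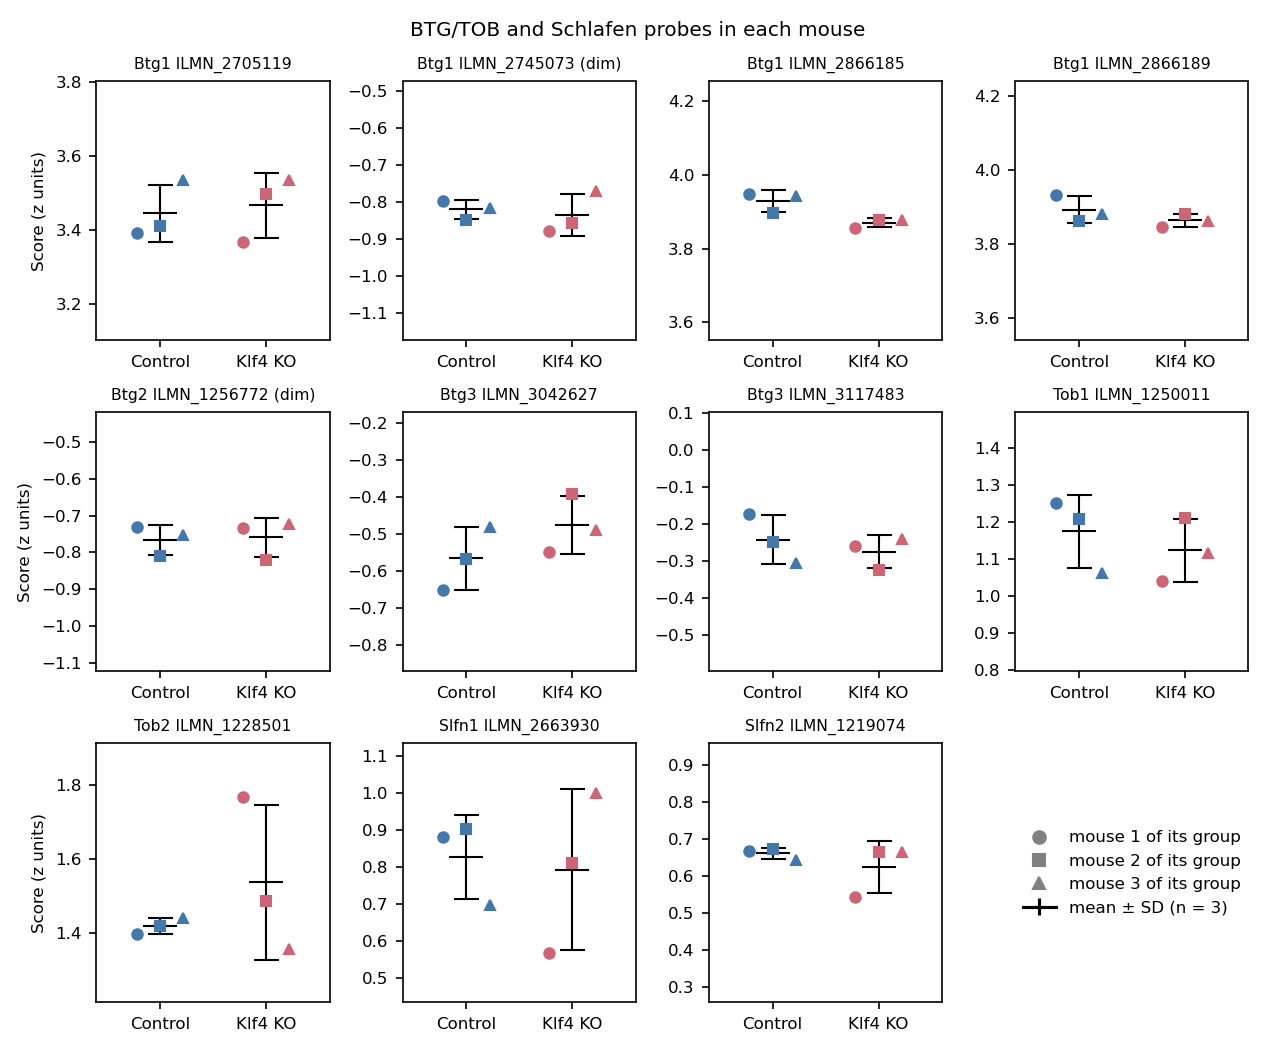
Score of each of the 11 member probes in each mouse, in z units after quantile normalization, with symbols for mice 1 to 3 of a group and bars for the mean ± SD (n = 3); every vertical axis spans the same length. The groups overlap on every probe but Btg1 ILMN_2866185, and knockout 1 is the highest mouse for Tob2 and the lowest for Slfn1 and Slfn2.

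Btg1, which partners with the deadenylase and is abundant in resting lymphocytes, had 4 probes. ILMN_2866185 read 3.948, 3.895 and 3.943 in control mice 1 to 3 and 3.855, 3.878 and 3.876 in knockout mice 1 to 3, which puts it near percentile 99.7 of every array. Every knockout value lay below every control value, by a narrow margin, and Btg1 was in this respect 1 of 9 member probes, while 14.1% of all probes tested had groups that did not overlap. The difference was -0.059 (SE 0.0354, adjusted p = 0.668), but in the deposited scores without quantile normalization it was 0.01 and the groups overlapped.

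The other bright Btg1 probes did not separate the groups. ILMN_2866189 read 3.932, 3.862 and 3.881 in control mice and 3.845, 3.881 and 3.862 in knockout mice, a difference of -0.029 (SE 0.0364, adjusted p = 0.853) that was 0.037 in the deposited scores. ILMN_2705119 read 3.391, 3.41 and 3.535 in control mice and 3.368, 3.497 and 3.535 in knockout mice, a difference of 0.021 (SE 0.0519, adjusted p = 0.942). On that probe the ranges of the 2 genotypes nearly coincided. The fourth probe, ILMN_2745073, was dim, between percentiles 1.15 and 12.36, and differed by -0.014 (95% interval -0.093 to 0.064) in the fit on all probes. Probes of 1 gene thus gave very different brightness, and which Btg1 sequence each probe matches was not analysed here.

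The steadiness of Btg1 across mice depended on the scaling. After quantile normalization the within-group SD of ILMN_2866185 was 0.0229, at least as large as in 3.4% of the probes tested, and its 6 values spanned 3.855 to 3.948. In the deposited scores the same probe spanned 3.763 in control 3 to 3.972 in knockout 2. Control 3 also had the lowest maximum of the arrays in those scores, at 4.516 against 4.77 to 5.019.

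Btg2, also called Tis21 or Pc3, is a target of p53 and an immediate early gene of growth signals, and its only probe here was dim. It read -0.732, -0.81 and -0.753 in control mice and -0.733, -0.819 and -0.724 in knockout mice, between percentiles 5.15 and 20.68. The values interleaved, and the difference in the fit on all probes was 0.006 (SE 0.0391, 95% interval -0.077 to 0.089). The values bear on a change only so far as that probe reports the transcript at such low brightness. Its control and knockout means, -0.765 ± 0.0405 and -0.759 ± 0.0524 (SD, n = 3 each), were closer together than the mice of either group.

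Btg3, which binds and restrains the transcription factor E2F1, had 2 probes that ranked the mice in nearly opposite order. ILMN_3042627 read -0.652, -0.568 and -0.481 in control mice and -0.549, -0.393 and -0.489 in knockout mice, a difference of 0.09 (SE 0.0523, adjusted p = 0.653). ILMN_3117483 read -0.173, -0.25 and -0.306 in control mice and -0.26, -0.325 and -0.24 in knockout mice, a difference of -0.032 (SE 0.0503, adjusted p = 0.898). Control 1 was the lowest mouse on the former and the highest on the latter, and knockout 2 was the highest on the former and the lowest on the latter. The unadjusted p of ILMN_3042627 was 0.0415 without knockout 1, 0.0309 without control 3 and 0.0215 with array weights, and it missed the adjusted threshold in every refit. The difference was 0.048 without knockout 2 (unadjusted p = 0.3838) and 0.048 without control 1 (unadjusted p = 0.4082). Its mean percentile was 42.32 in control and 50.33 in knockout mice. The probes disagree in sign, so no direction is given for the gene.

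**Figure D3:**
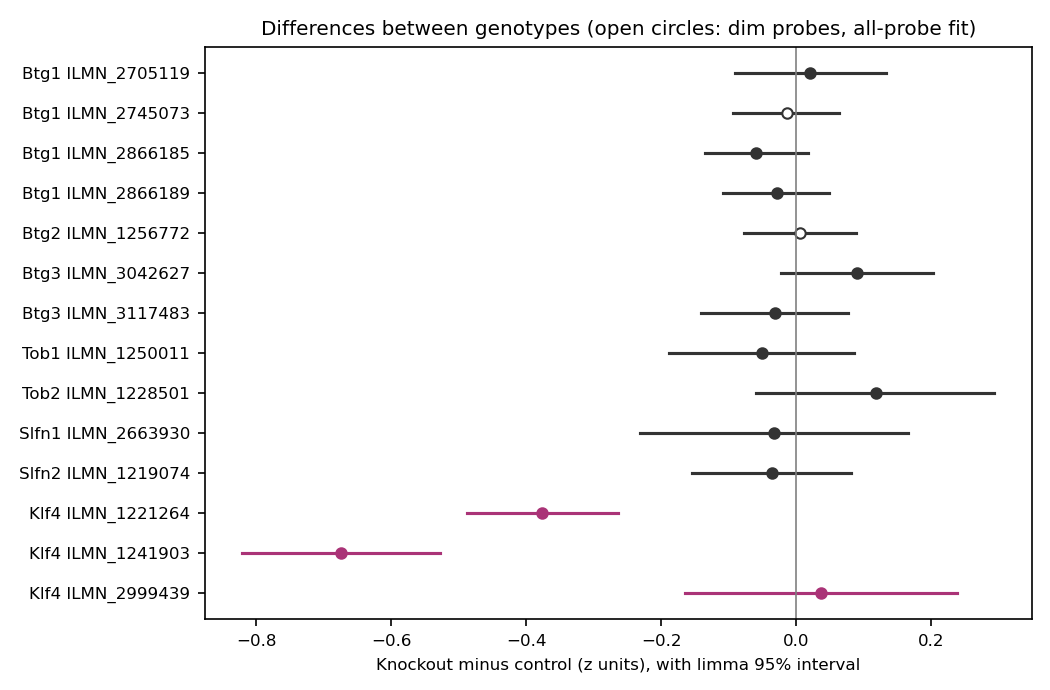
Difference between the genotypes (knockout minus control, z units) with its 95% limma interval for the 11 member probes and, below them, the 3 Klf4 probes; open circles are dim probes taken from the fit on all probes. Every member interval includes 0, and those of Klf4 ILMN_1241903 and ILMN_1221264 end at -0.528 and -0.264.

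Tob1, which restrains proliferation and cytokine production of T cells, read 1.251, 1.208 and 1.062 in control mice and 1.04, 1.211 and 1.116 in knockout mice. Control 3 and knockout 1 were the low mice, so the groups overlapped, and the difference was -0.051 (SE 0.0635, adjusted p = 0.853). It was -0.01 without knockout 1, -0.012 without control 1 and -0.107 without control 3. Tob2, its close paralogue, read 1.397, 1.418 and 1.441 in control mice and 1.767, 1.485 and 1.356 in knockout mice. The control mice were tightly grouped with an SD of 0.0221, and the knockout mice were spread on both sides of them with an SD of 0.2104. The difference of 0.118 (SE 0.0818, adjusted p = 0.711) was the largest in size among the members, and it rested on knockout 1, without which it was 0.002. Without knockout 3 it was 0.208, with an unadjusted p of 0.0175 and an adjusted p of 0.352. Tob1 and Tob2 had differences of opposite sign, and neither passed. Any bearing of the upstream letters on the member values was not tested.

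Slfn1 and Slfn2 lie in the same Schlafen cluster on chromosome 11. Slfn1 read 0.879, 0.901 and 0.696 in control mice and 0.566, 0.811 and 1.0 in knockout mice. Knockout 1 was the lowest and knockout 3 the highest of all 6 mice, so the knockout group enclosed the control group. The difference was -0.033 (SE 0.0923, 95% interval -0.232 to 0.166, adjusted p = 0.95), and it was 0.08 without knockout 1 and -0.137 without knockout 3. Its within-group SD of 0.1734 was at least as large as in 98.9% of the probes tested, and that of Tob2, 0.1496, as in 98.1%, against a median of 0.0603. Slfn2 read 0.668, 0.673 and 0.644 in control mice and 0.545, 0.666 and 0.666 in knockout mice. Only knockout 1 was low, the difference was -0.036 (SE 0.0549, adjusted p = 0.889), and it was 0.004 without knockout 1. Slfn1 and Slfn2 were thus both lowest in knockout 1.

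Knockout 1 was the extreme mouse for several members. It was the lowest of the 6 on the probes of Tob1, Slfn1 and Slfn2 and on all 4 Btg1 probes, and the highest on Tob2, although on Btg1 ILMN_2866185 and ILMN_2866189 control 3 was the lowest in the deposited scores. The 4 Btg1 probes stand for 1 gene, and ILMN_2745073 was dim. The share of all probes tested on which knockout 1 was the extreme mouse was not counted. On the first principal component of all probes tested, the array of knockout 1 also had the most extreme score. This component held 30.18% of the variance. Scores were 8.511, 4.467 and -0.394 in knockout mice 1 to 3 and -3.316, -3.047 and -6.221 in control mice 1 to 3. The sign of this component was set to make the mean knockout score positive, so only the separation and the ends are read. The knockout and control scores did not overlap, and control 3 was at the other end from knockout 1. The DP markers of knockout 1 had a median percentile of 97.1 against 97.6 to 98.0 in the other mice. The part of these features in the member values was not tested.

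Relatives and partners of the members were read from lists chosen with earlier results of these data known. Among 9 other Btg and Schlafen genes, 7 had a probe here and 3 were bright enough to test: Btg4 differed by -0.017, Slfn3 by -0.021 and the Schlafen-like gene Slfnl1 by 0.034, with adjusted p of 0.846 or more. Their mean percentiles were only 46.95 to 56.33, and whether these probes read over background is unknown. Slfn4, Slfn5, Slfn8 and Slfn9 were dim. Slfn8 had the largest difference of these 4, 0.06 in the fit on all probes, with groups that did not overlap. Slfn5, Slfn9 and Slfn4 differed by 0.02, 0.014 and -0.007, with groups that did. The list for the BTG1 and TOB effector machinery of deadenylation and mRNA decay, which also holds Prmt1, had 18 tested genes. Of these 13 were above 0 and 5 below, with 0 passing and a median of 0.054. Cnot1, Tnks1bp1, Parn and Dcp2 had no probe here, and Cnot8 and Lsm1 were dim. Over all 10399 genes tested, with 1 probe each, 5006 were above 0 and 5393 below, the median was -0.0025 and 0 passed, since the brightest Klf4 probe is the one that did not. Ddx6, a decapping helicase that CCR4-NOT recruits, read 1.967, 1.483 and 1.643 in control mice and 2.356, 1.993 and 1.802 in knockout mice, a difference of 0.352 (SE 0.1269, adjusted p = 0.461) with overlapping groups, and of 0.2 without knockout 1. Cnot6l, a catalytic deadenylase subunit, had a difference of -0.081 (SE 0.0513, adjusted p = 0.68), and its knockout values of 0.803 to 0.822 lay below the control values of 0.844 to 0.93. Groups without overlap were also seen in 1473 of all 10399 genes tested.

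Programmes that go with the members' known regulation were read in the same way, and their 0 genes past the threshold equal the 0 of all 10399. Of 13 tested other quiescence genes 10 were above 0, with a median of 0.032. Rbl2, the p130 pocket protein gene, differed by 0.406 (adjusted p = 0.217) and Foxo1, which maintains resting T cells, by -0.091 (adjusted p = 0.684; -0.038 without control 3). Of 16 tested p53 targets, the class to which Btg2 belongs, 10 were above 0 with a median of 0.028. The smallest p in each direction were those of Trp53inp1, at -0.15, and Tnfrsf10b, at 0.223. Of 17 immediate early genes 13 were below 0 with a median of -0.073, and Fosb stood against them at 0.397 (SE 0.1607, adjusted p = 0.498; 0.23 to 0.62 without 1 mouse) while Atf3 was at -0.111. Fosb encodes an AP-1 subunit, and ATF3 is a stress-induced bZIP factor. Of 24 interferon-stimulated genes, the class that includes many Schlafen genes, 18 were above 0 with a median of 0.047. Ifit3 was at 0.23 and Trim30a at -0.09. Of 21 proliferation genes 12 were above 0 with a median of 0.013, with Mcm7, a replicative helicase subunit, at 0.179 and Pcna, the sliding clamp of DNA polymerase, at -0.094. The 11 mature SP4 genes had a median of 0.016, with Bcl2 at 0.183 and Ms4a6b at -0.102. The 10 DP genes had 8 below 0 and a median of -0.076, with Themis at -0.239 and Cd1d1 at 0.091.

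**Figure D4:**
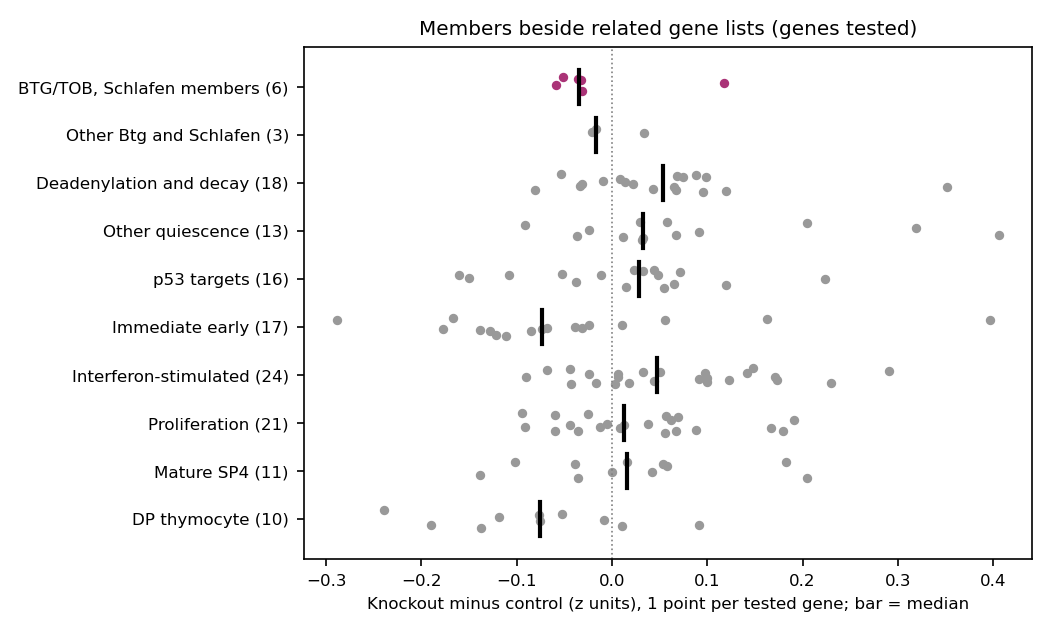
Differences (knockout minus control, z units) of the tested genes of each list, 1 probe per gene, with the number of genes in brackets and a bar at the median. The 6 tested members have a median of -0.035 and lie between -0.059 and 0.118, and 0 genes of the lists shown passed the threshold, as did 0 of all 10399 genes at 1 probe each.

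The genes whose values across the 6 arrays followed a member most closely were named by Pearson r, as a description without a test. For Slfn1 these were Romo1 (r = 0.993) and Ercc8 (r = 0.991), and for Slfn2 Baiap2 (r = 0.991) and Lonp2 (r = 0.987). For Tob1 they were Psmd2 (r = 0.994) and Ankrd40 (r = 0.989), and for Tob2 Serpinb3a (r = 0.996) and Uri1 (r = 0.989). For Btg1 they were Zfp647 (r = 0.995) and Herc4 (r = 0.99), for Btg2 Mex3d (r = 0.988) and Taf8 (r = 0.983), and for Btg3 Psmd12 (r = 0.986) and Cxcl1 (r = 0.961). Among about 10398 genes compared, 49 to 160 had r above 0.9 with a given member over 6 points, so the nearest names carry little weight. No pair of members was among these nearest genes, which were ranked from the highest positive r among tested genes. Slfn1 and Slfn2 had r = 0.848 with each other. Tob2 had r = -0.952 with Slfn2 and r = -0.869 with Slfn1. On each of these probes knockout 1 was the extreme mouse.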

How the data were processed

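Each array gave 1 column of deposited scores. By their values these have mean 0 and SD 1 in every array, so the authors had standardised them. The submitters' processing notes name GenomeStudio 2010.1 without saying what it did. How background was handled, and whether logarithms were taken, is not given in the sources used here, and no detection p-values were used. Column medians were -0.4933, -0.4889 and -0.4905 for knockout mice 1 to 3 and -0.4883, -0.491 and -0.4873 for control mice 1 to 3.

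The scores were quantile normalized between arrays. As dim, 10279 probes with a mean below the 40th percentile were dropped, leaving 15418. Knockout and control mice were compared by limma 3.58.1 under R 4.3.3 (two-sided, lmFit and trended eBayes), with Benjamini-Hochberg adjustment over all probes tested, a threshold of 0.05, and standard errors (SE) and 95% intervals from limma. Dim member probes were read from a fit on all probes. The method was tested on simulated data. The simulated shifts were larger than any member difference, so that test does not bear on changes of the members' size. GEO's annotation of the platform named the probes, and gene identifiers linked these names to current RefSeq symbols (GRCm38.p6): 23978 probes had 1 symbol, 0 had several and 1719 had none; 23962 were matched and 16 were not. Lists use the probe with the highest mean per gene.

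The members and lists were chosen with earlier results of these data known. Named are every member probe, Klf4, Xist and Eif2s3y, the gene of each list with the smallest p in each direction, and the 2 genes most correlated with each member. Btg4, Slfn8 and the other dim relatives, some cell markers, Prmt1, and decay genes without a tested probe were named besides. The mice are separate animals, and the number of arrays limits the precision. Alternatives were the deposited scores, percentile ranks, no filter, a filter at the 60th percentile, no variance trend, robust variance, array weights, the replicate number as a block and leaving out each mouse.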

Additional observations from a re-analysis of the deposited data

How the results depend on the processing

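The count of member probes past the threshold was 0 under every alternative run (limma; 0 or 1 at an unadjusted p under 0.05), and 0 to 0 without 1 mouse. Over 149 refits of the 11 member probes, 136 kept the sign and 13 reversed it, 0 passed, and the lowest adjusted p was 0.352. With the deposited scores, Btg1 was 0.01 on ILMN_2866185 and 0.037 on ILMN_2866189, and with array weights Btg2 was -0.001. Leaving out each mouse in turn gave ranges of -0.012 to 0.071 (ILMN_2705119) and -0.047 to 0.007 (ILMN_2745073) for Btg1, -0.016 to 0.036 for Btg2, -0.063 to 0.003 for Btg3 ILMN_3117483, -0.137 to 0.08 for Slfn1, -0.056 to 0.004 for Slfn2, -0.063 to 0.033 for Slfn3, -0.002 to 0.246 for Cd1d1 and -0.052 to 0.14 for Klf4 ILMN_2999439. The count over all probes, 2, was 0 with percentile ranks, 0 with the stricter filter (which removes the Klf4 probes that pass), 1 without a variance trend, 4 with the replicate block, and 1 to 4 without 1 mouse; apart from the filter, the cause was not tested. Without knockout 1 it was 4, and without knockout 3, control 1 or control 2 it was 1. Same-numbered mice deviated together with r of -0.0338, 0.1669 and 0.0346, so the numbers were not taken as pairs; with the block Fosb passed (adjusted p = 0.0391) and 0 members did. Klf4 ILMN_1221264 lost its call with percentile ranks, without a trend and in each fit without 1 mouse other than control 3, and ILMN_1241903 with percentile ranks. Brightness over background is unknown here, which limits what the dim Btg2 probe can show.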
